A study of Mus musculus with 4 samples.

Results

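The genes described here are 31 markers and signals of cochlear macrophages and of the complement system, out of 24411 genes in the count table. They were listed by name, with earlier results of these data known, and all 31 passed the filter on low counts. The RNA was taken at postnatal day 7 from cochleas of mice homozygous or heterozygous for a knockout of Otof, with 2 pools per genotype. Otof encodes otoferlin, through which calcium triggers transmitter release at inner hair cell synapses. Each pool held the cochleas of 2 to 3 pups, dissected as for the study's electrical recordings, and the study's title asks about ion channels of spiral ganglion neurons. The heterozygous pools, the comparison group, carry the knockout allele as well, and wild-type pools are not analysed here. The labels name no strain, promoter or Cre, and give nothing about how the allele was made. They do not say whether pools came from separate litters, so p-values measure the spread between these pools.

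Macrophages settle in the developing cochlea around the spiral ganglion, the lateral wall and the vessels, where they clear debris and refine tissue. They depend on the receptor Csf1r, which binds the ligands Csf1 and Il34, and they sense fractalkine, the product of Cx3cl1, through Cx3cr1. Complement tags material for removal: C1q, built of A, B and C chains, starts the classical pathway, which cleaves C3, and macrophages read a C3 fragment through C3ar1.

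The libraries held 31509350 to 38090724 estimated counts, and the limit that a count of 0 allows, 3 counts, lay between 0.0788 and 0.0952 counts per 1000000 (CPM), for counting error only. Otof had 5 and 9 counts in the homozygous pools and 86 and 83 in the heterozygous pools, so its order matched the labels (edgeR's log2 fold change -3.62 ± 0.46, SE; adjusted p = 0.116 by edgeR and 9.80e-06 by DESeq2). The pools differed in sex-linked transcripts, with 2 and 19085 counts of Xist in homozygous replicates 1 and 2, against 5771 and 6733 in the heterozygous pools. Counts of Ddx3y, on the Y chromosome, were 3878 and 0 in homozygous replicates 1 and 2, against 2700 and 1872 in the heterozygous pools, and the part of sex in the values below was not tested. Of the hair cell markers that define the tissue, Myo7a had 31.2 and 45.4 CPM in the homozygous and 33.6 and 46.1 CPM in the heterozygous pools. Pou4f3 had 0 and 0 counts in the homozygous and 7 and 0 in the heterozygous pools, and Atoh1 had 0 counts in all 4.

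None of the 31 macrophage and complement genes passed a test of genotype. edgeR's quasi-likelihood test called 0 of the 31 members at an adjusted p of 0.05, and 0% of the 15359 genes tested. DESeq2, the tool the submitters name, also called 0 of the 31, where it called 4.14% of the 16028 genes it adjusted, 0.986% higher and 3.16% lower. At an unadjusted p under 0.05 each tool had 1 member, Il34, lower in homozygous pools. The share of all genes was 13.3% by edgeR, 8.91% being lower, and 10.4% by DESeq2. The median log2 fold change, homozygous over heterozygous, was -0.02 over the members and 0.01 over all genes tested. The value was above 0 for 13 members and below 0 for 18, and for 26 of the 31 it lay within 0.25 of 0. Of the 15359 genes tested, 7954 were above 0 and 7405 below, and 10440 lay within 0.25 of 0. The 95% interval of the fold change stayed within 2-fold either way for 24 of the 31 members. The exceptions were Il34, Ccr2, C3, Tyrobp, Cd163, Cd68 and Lyz2. Such intervals were not counted over all genes. In tissue RNA, fewer cells of a type and less RNA per cell cannot be told apart.

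**Figure D1:**
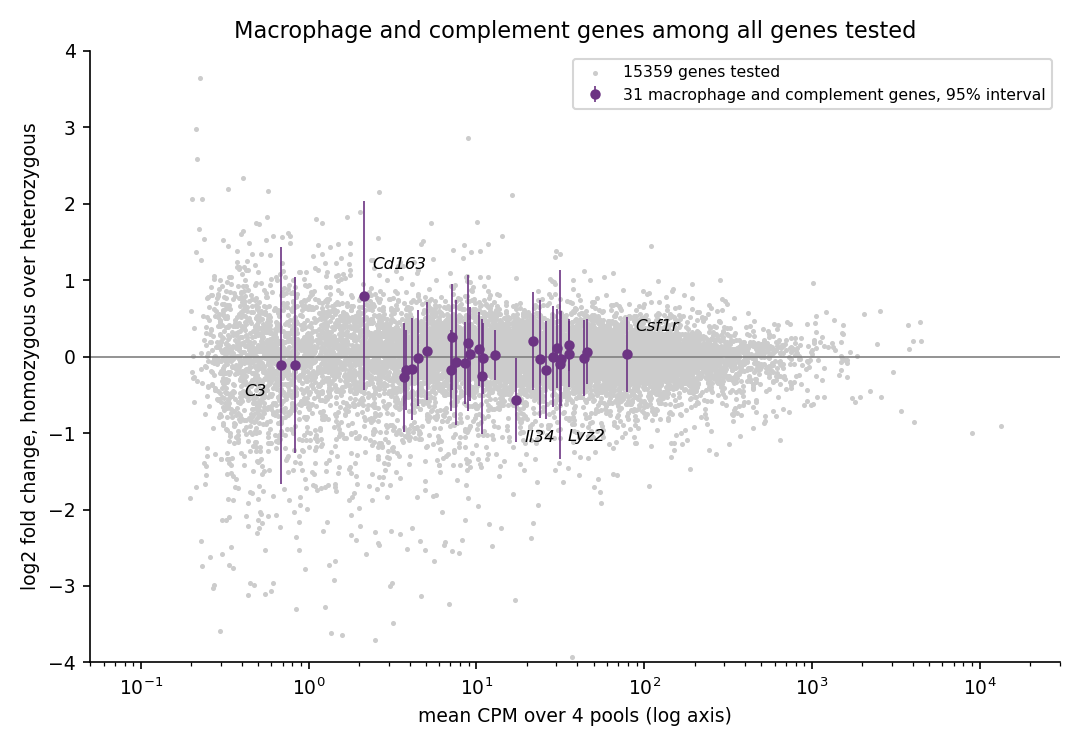
Log2 fold change of homozygous over heterozygous pools (vertical axis, positive is higher in homozygous pools) against mean CPM over the 4 pools (horizontal log axis). Grey points are the 15359 genes tested, 16 of which lie beyond the vertical axis, and purple points with bars are the 31 members with 95% intervals from the edgeR fit. The members lie near 0, and of the named ones Il34 is lowest and Cd163 highest.

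Macrophage transcripts differed more between pools of a genotype than between the genotypes. The 23 members that are largely restricted to macrophages and related leukocytes were summed for each pool. The sum was 480.0 and 405 CPM in homozygous replicates 1 and 2, against 508 and 363 CPM in heterozygous replicates 1 and 2. Both homozygous pools thus lay between the heterozygous ones. The means were 443 ± 52.8 CPM in homozygous and 436 ± 102 CPM in heterozygous pools (SD, n = 2 each), a ratio of 1.02. As a log2 ratio this was 0.02, and it became 0.29 without heterozygous replicate 1 and -0.20 without heterozygous replicate 2. Within a genotype, replicate 1 over replicate 2 was 1.18-fold in homozygous and 1.40-fold in heterozygous pools. With 2 pools against 2 an exact two-sided permutation test cannot go below 0.333, and none was run.

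The genotype difference was larger than both differences between pools of 1 genotype for 2 of the 31 members, Il34 and Aif1, against 33.3% of all genes. The same 2 were the only members whose homozygous and heterozygous pools did not overlap in CPM, against 46.1% of all genes, and in both the homozygous pools were below. Replicate 1 was above replicate 2 in both genotypes for 21 of the 31 members, against 28.8% of all genes. The opposite held for 3 members, C3, Aif1 and Cd163, against 34.1% of all genes. Heterozygous replicate 2 was the lowest pool for 19 members and heterozygous replicate 1 the highest for 16, against 23.3% and 20.9% of all genes. Members share cells and are not independent of each other, and the labels do not say that a shared replicate number ties pools together. The median absolute log2 difference was 0.09 between genotypes, 0.28 between the homozygous pools and 0.47 between the heterozygous pools. Over all genes tested those medians were 0.14, 0.16 and 0.14.

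**Figure D2:**
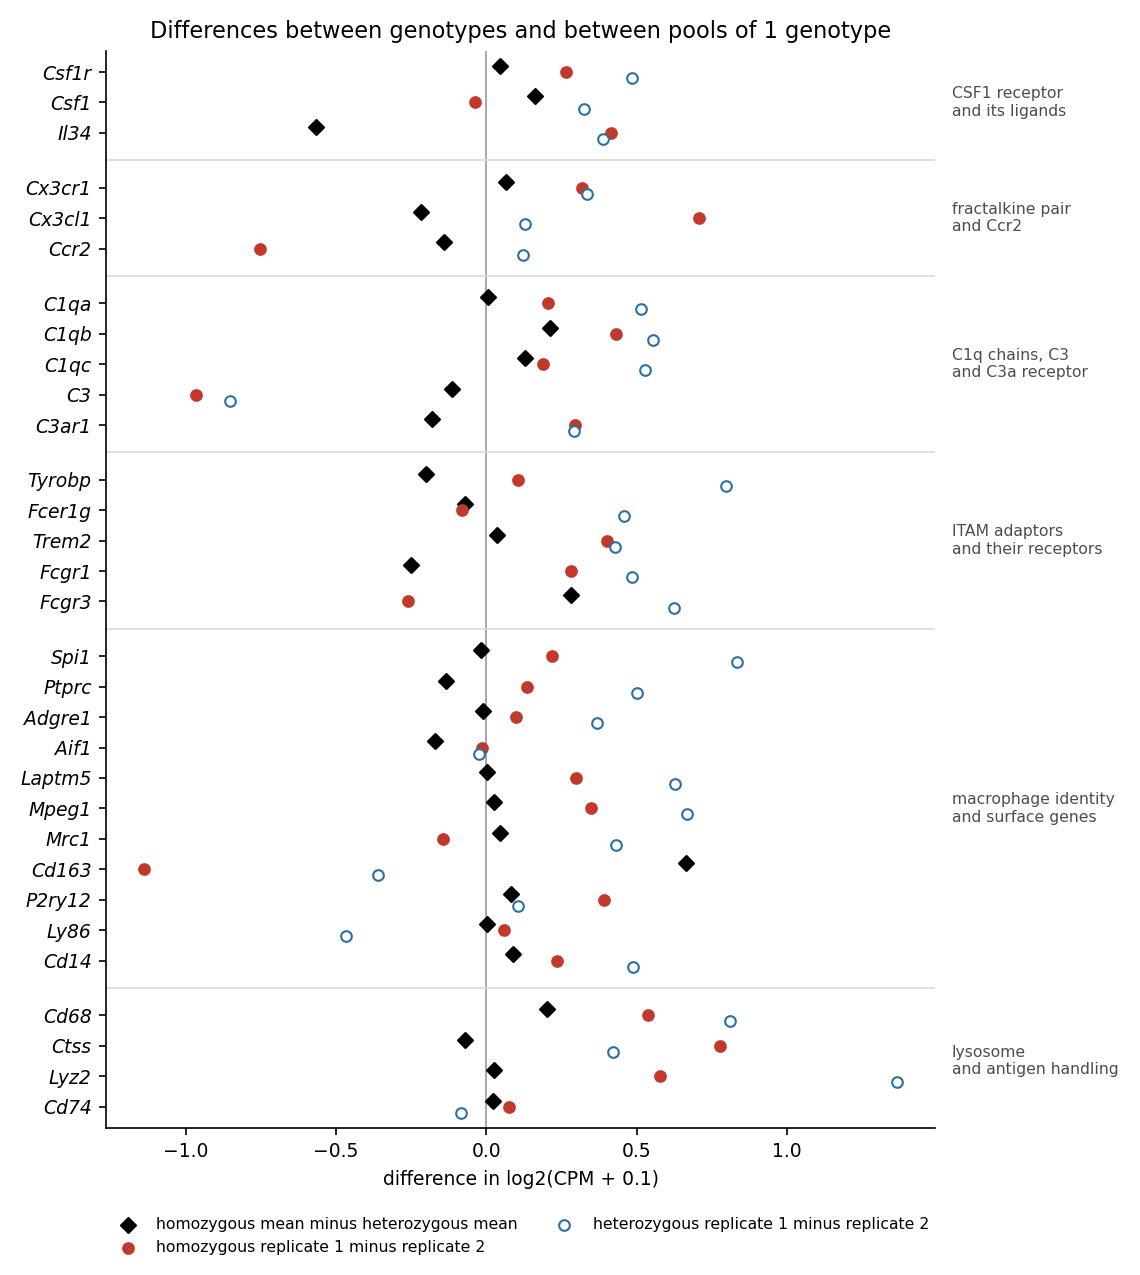
Difference in log2(CPM + 0.1) for each member, grouped by role. Diamonds give the homozygous mean minus the heterozygous mean, filled circles homozygous replicate 1 minus replicate 2, and open circles heterozygous replicate 1 minus replicate 2. For most members the diamond lies nearer to 0 than the open circle; Il34 and Aif1 are the members where it lies farther out than both circles.

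The receptor Csf1r had the highest CPM of the members. It had 87.7 and 73.0 CPM in homozygous replicates 1 and 2, against 91.8 and 65.5 CPM in heterozygous replicates 1 and 2. Its pools overlapped, and the log2 fold change was 0.03 ± 0.19 (SE) with a 95% interval of 0.727 to 1.44 as a fold. Csf1, the broadly made ligand, had 37.2 and 38.2 CPM in the homozygous pools, against 37.8 and 30.1 CPM in the heterozygous pools, where replicate 2 was the lowest of the 4. Il34, the second ligand, which neurons and epithelia make, had 15.8 and 11.8 CPM in the homozygous pools, against 23.3 and 17.8 CPM in the heterozygous pools. All homozygous values lay under all heterozygous values. Its log2 fold change of -0.57 ± 0.21 (fold 0.674, 95% interval 0.459 to 0.989) had an edgeR adjusted p of 0.371 and a DESeq2 adjusted p of 0.301. Leaving out a pool in turn gave -0.81 to -0.36, below 0 each time. Neuronal markers, of a cell type that makes Il34, summed to 5664 and 5376 CPM in the homozygous pools, against 8114 and 7862 CPM in the heterozygous pools, and 8 of 12 fell by DESeq2. Schwann cell markers summed to 25256 and 21019 CPM in the homozygous pools, against 41629 and 42976 CPM in the heterozygous pools, and 7 of 10 fell by DESeq2. The part of these cells in the Il34 values was not tested.

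Cx3cr1, the fractalkine receptor of resident macrophages, had 51.6 and 41.4 CPM in the homozygous pools, against 49.6 and 39.3 CPM in the heterozygous pools. The higher pool of each genotype was replicate 1, and replicate 1 minus replicate 2 was 0.32 in homozygous and 0.34 in heterozygous pools on the log2 scale. Its ligand gene Cx3cl1, expressed by neurons and other cells, had 30.3 and 18.5 CPM in the homozygous pools, against 28.8 and 26.3 CPM in the heterozygous pools. Homozygous replicate 2 stood below the other 3 pools. Ccr2, the receptor that brings in blood monocytes, was rare, with 22 and 33 counts in the homozygous and 32 and 26 counts in the heterozygous pools. In CPM these were 0.569 and 1.03 in the homozygous and 0.900 and 0.818 in the heterozygous pools, and the 95% interval of its fold change was 0.416 to 2.05.

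**Figure D3:**
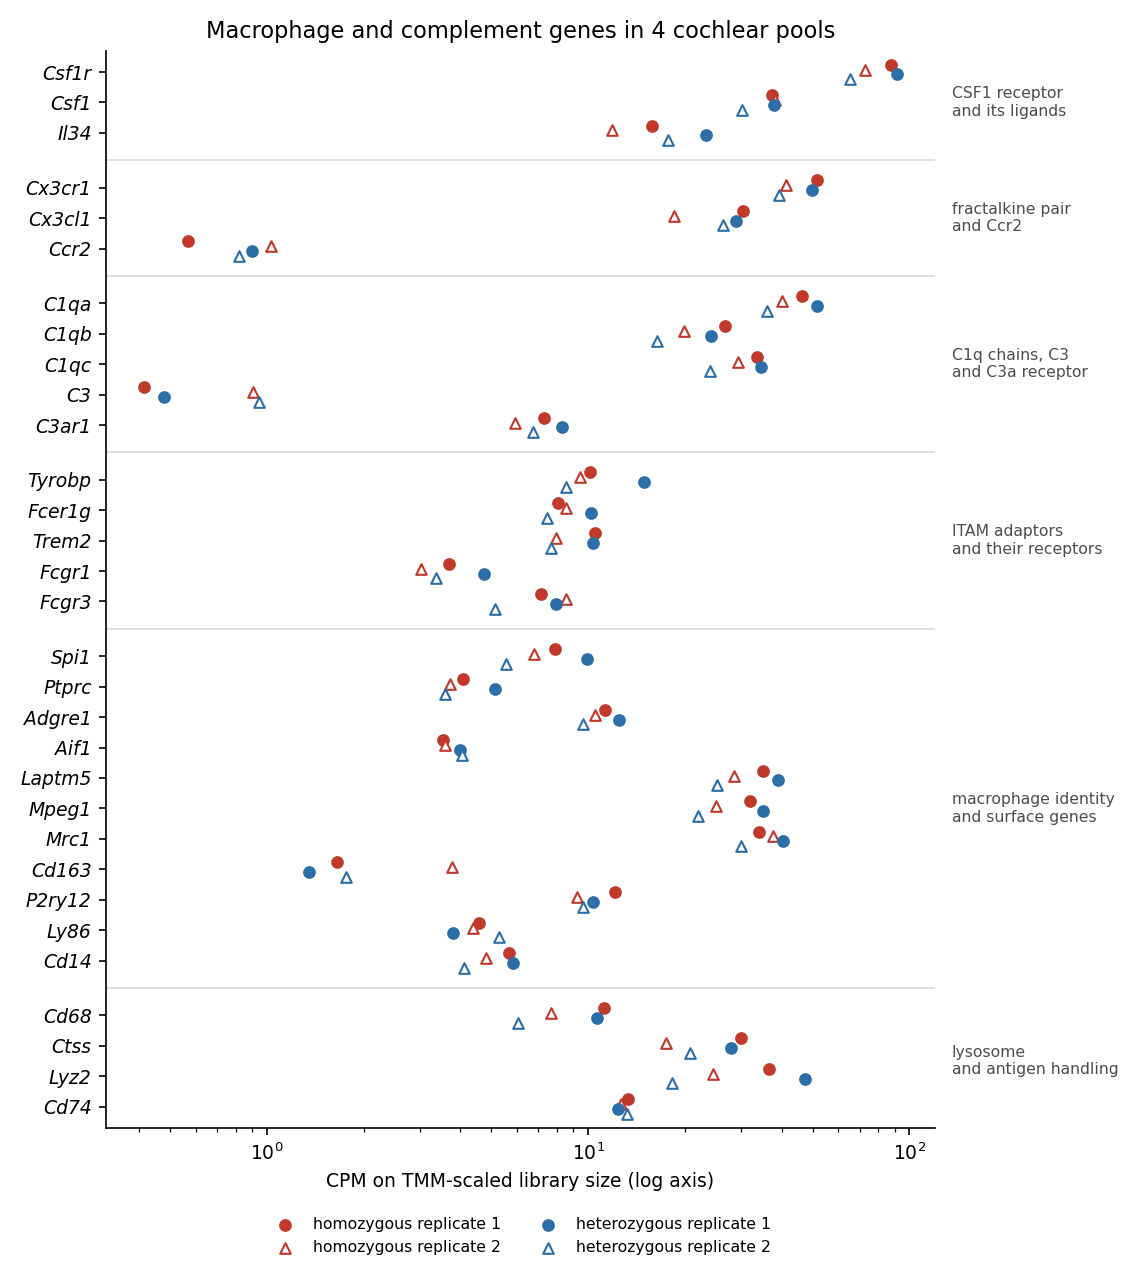
CPM of each of the 31 members in the 4 pools on a log axis, grouped by role. Red symbols are homozygous and blue symbols heterozygous pools, with filled circles for replicate 1 and open triangles for replicate 2. Red and blue overlap in nearly all rows, and heterozygous replicate 2 is often the lowest symbol.

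The C1q chains were among the most abundant members per length. C1qa (136895917 to 136898803), C1qc (136889804 to 136893065) and C1qb (136880129 to 136886187) lie on the minus strand of chromosome 4 (GRCm38, GENCODE M21). Per kb of principal transcript C1qa averaged 41.9 CPM over the 4 pools, the highest level of the members, followed by C1qc at 25.2, Lyz2 at 24.1 and C1qb at 20.0. The receptor Csf1r averaged 16.9 CPM per kb on the same scale. C1qa had 46.4 and 40.3 CPM in the homozygous pools, against 51.5 and 36.0 CPM in the heterozygous pools. C1qb had 26.7 and 19.8 CPM in the homozygous pools, against 24.1 and 16.4 CPM in the heterozygous pools. C1qc had 33.5 and 29.4 CPM in the homozygous pools, against 34.5 and 23.9 CPM in the heterozygous pools. In each chain the pools of the genotypes overlapped, with heterozygous replicate 2 lowest. The log2 fold changes were -0.02 ± 0.19, 0.20 ± 0.25 and 0.11 ± 0.20 (SE) for C1qa, C1qb and C1qc, with edgeR adjusted p of 0.985, 0.786 and 0.868.

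While their level moved between pools, the 3 chains kept similar shares of the summed C1q CPM. The C1qa share was 43.5% and 45.0% in the homozygous pools, against 46.8% and 47.3% in the heterozygous pools. That of C1qb was 25.1% and 22.2% in the homozygous pools, against 21.9% and 21.4% in the heterozygous pools. For C1qc it was 31.4% and 32.8% in the homozygous pools, against 31.3% and 31.3% in the heterozygous pools. The sum itself was 107 and 89.5 CPM in the homozygous pools, against 110.1 and 76.3 CPM in the heterozygous pools.

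The bases before the transcription start are shown for 2 C1q chains, Trem2 and Mpeg1. Any part of these bases in the differences between pools was not tested. Windows of 250 bases before the start came from a set of RefSeq promoters on GRCm38.p6, and that set holds 23 of the 31 members. They were searched on both strands for GAGGAA, a word within the sites bound by PU.1, the product of Spi1 and a master regulator of macrophages. Capitals mark a match to it or to its reverse complement. The word begins 30 bases before the start in C1qb, 193 in C1qc and 40 in Trem2, and Mpeg1 has no match in its window. These are RefSeq starts, which differ from the GENCODE starts for C1qb, C1qc and Mpeg1. Part of the C1qc window lies inside the gene as GENCODE places it, with its start at 136893065.
C1qb (chr4:136886201-136886450, minus strand): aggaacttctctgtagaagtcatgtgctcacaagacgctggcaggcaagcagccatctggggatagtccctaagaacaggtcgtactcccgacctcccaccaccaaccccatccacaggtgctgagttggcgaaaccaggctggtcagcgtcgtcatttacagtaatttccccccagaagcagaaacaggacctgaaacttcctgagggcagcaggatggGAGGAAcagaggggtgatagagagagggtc
C1qc (chr4:136892915-136893164, minus strand): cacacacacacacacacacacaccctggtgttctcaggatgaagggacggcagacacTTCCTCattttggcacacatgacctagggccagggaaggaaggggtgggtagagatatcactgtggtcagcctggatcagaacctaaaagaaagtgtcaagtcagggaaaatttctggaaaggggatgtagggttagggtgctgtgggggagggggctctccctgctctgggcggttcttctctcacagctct
Trem2 (chr17:48346151-48346400, plus strand): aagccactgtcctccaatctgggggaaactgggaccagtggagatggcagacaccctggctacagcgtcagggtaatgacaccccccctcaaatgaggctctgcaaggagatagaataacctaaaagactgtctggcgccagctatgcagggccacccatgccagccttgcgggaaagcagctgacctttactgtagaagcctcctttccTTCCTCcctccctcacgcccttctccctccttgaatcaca
Mpeg1 (chr19:12460520-12460769, plus strand): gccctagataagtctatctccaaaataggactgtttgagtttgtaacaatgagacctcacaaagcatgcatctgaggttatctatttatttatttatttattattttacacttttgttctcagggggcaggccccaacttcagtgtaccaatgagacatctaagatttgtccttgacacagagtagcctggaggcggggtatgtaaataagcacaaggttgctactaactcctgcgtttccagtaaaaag
GAGGAA was in the window of 12 of the 23 members, 52.2%, and of 25.9% of all genes in that promoter set. The longer word GAGGAAGT, which contains the core, was in 1 member, C1qc, and in 2.79% of all genes. The composite word bound jointly by PU.1 and interferon regulatory factors, also searched, was in 0 of the 23 and in 2.68% of all genes. These matches are a description of the letters and do not show binding.

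The later complement members were rarer. C3, the central component, had 16 and 29 counts in the homozygous pools, against 17 and 30 in the heterozygous pools. Per kb it averaged 0.133 CPM, the lowest of the 31 members. In CPM these were 0.414 and 0.904 in the homozygous and 0.478 and 0.944 in the heterozygous pools, higher in replicate 2 of each genotype, unlike the C1q chains. The 95% interval of its fold change was 0.314 to 2.71. C3ar1, the C3a receptor, had 7.29 and 5.92 CPM in the homozygous pools, against 8.26 and 6.73 CPM in the heterozygous pools, which overlapped.

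Among the signalling adaptors, Tyrobp (DAP12) had 10.2 and 9.44 CPM in the homozygous pools, against 14.9 and 8.52 CPM in the heterozygous pools. Its 2 heterozygous pools were the highest and the lowest of the 4. Fcer1g, the Fc receptor gamma chain, had 8.07 and 8.54 CPM in the homozygous pools, against 10.2 and 7.42 CPM in the heterozygous pools, in the same order of extremes. Trem2, a lipid receptor that signals through Tyrobp, had 10.5 and 7.95 CPM in the homozygous pools, against 10.4 and 7.67 CPM in the heterozygous pools. Its log2 fold change was 0.03 ± 0.24 (SE), with replicate 1 above replicate 2 in both genotypes. The IgG receptors were 3.70 and 3.02 CPM in homozygous and 4.75 and 3.37 CPM in heterozygous pools for Fcgr1, the high-affinity form. Fcgr3 had 7.11 and 8.54 CPM in the homozygous pools, against 7.96 and 5.13 CPM in the heterozygous pools. Fcgr3 can share reads with other Fc receptor genes, and its estimated counts were not whole in the heterozygous pools, so its value is uncertain.

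Spi1, the gene of PU.1, had 7.92 and 6.79 CPM in the homozygous pools, against 9.95 and 5.54 CPM in the heterozygous pools. Heterozygous replicate 1 was highest and heterozygous replicate 2 lowest. The same order held for Ptprc (CD45, the pan-leukocyte phosphatase), with 4.09 and 3.71 CPM in homozygous and 5.12 and 3.59 CPM in heterozygous pools. It also held for Adgre1, which encodes the F4/80 antigen, with 11.3 and 10.5 CPM in homozygous and 12.5 and 9.62 CPM in heterozygous pools. Laptm5, a lysosomal membrane protein of leukocytes, and Mpeg1, a pore-forming protein of macrophages, had that order too. Laptm5 was 31.6 ± 4.64 CPM in homozygous and 32.2 ± 9.81 CPM in heterozygous pools (SD, n = 2 each). Mpeg1 was 28.4 ± 4.85 CPM in homozygous and 28.4 ± 9.16 CPM in heterozygous pools (SD, n = 2 each), a log2 fold change of 0.00 ± 0.26 (SE). In that order the heterozygous pools are the extremes, so their difference always exceeds that between the genotype means. The order held for 13 of the 31 members, against 5.14% of all genes tested.

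Aif1, the gene of the actin-binding marker IBA1, differed least of the members between pools of a genotype. It had 3.54 and 3.58 CPM in the homozygous pools, against 3.99 and 4.06 CPM in the heterozygous pools, which did not overlap. The log2 fold change was -0.18 ± 0.20 (SE) with an edgeR adjusted p of 0.775. These CPM stand for 137 and 115 counts in the homozygous and 142 and 129 counts in the heterozygous pools.

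The other macrophage identity and surface genes followed no common order of pools. In Mrc1 and Cd14 heterozygous replicate 1 was highest and heterozygous replicate 2 lowest, but not in Cd163, P2ry12 or Ly86. Mrc1 (CD206), of perivascular and tissue macrophages, had 34.0 and 37.7 CPM in the homozygous pools, against 40.3 and 29.9 CPM in the heterozygous pools. Cd163, a haemoglobin scavenger receptor of similar cells, had 1.66 and 3.77 CPM in the homozygous pools, against 1.35 and 1.76 CPM in the heterozygous pools. Homozygous replicate 2 stood above the other 3 pools. Cd163 had the highest log2 fold change of the members, 0.80 ± 0.48 (SE; edgeR adjusted p = 0.548), and without homozygous replicate 2 it was 0.10. P2ry12, a purinergic receptor best known from microglia, had 12.1 and 9.22 CPM in the homozygous pools, against 10.4 and 9.62 CPM in the heterozygous pools. Its homozygous replicate 1 was highest, and the pools overlapped. Ly86 (MD-1), a partner of a Toll-like receptor homologue, had 4.58 and 4.39 CPM in homozygous and 3.79 and 5.28 CPM in heterozygous pools. Cd14, the lipopolysaccharide co-receptor, had 5.66 and 4.80 CPM in homozygous and 5.82 and 4.12 CPM in heterozygous pools. Both genes overlapped between genotypes.

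Of the lysosomal genes, Cd68 had 11.2 and 7.67 CPM in the homozygous pools, against 10.7 and 6.04 CPM in the heterozygous pools. Ctss, the protease cathepsin S, had 30.0 and 17.4 CPM in the homozygous pools, against 27.8 and 20.8 CPM in the heterozygous pools. Lyz2, lysozyme of macrophages and neutrophils, had 36.6 and 24.5 CPM in the homozygous pools, against 47.3 and 18.3 CPM in the heterozygous pools. In all 3, replicate 1 was higher in each genotype. Lyz2 differed 1.49-fold between homozygous and 2.58-fold between heterozygous pools, and Ctss 1.72-fold between homozygous and 1.34-fold between heterozygous pools. Lyz2 can share reads with its close copy Lyz1. Cd74, the invariant chain of MHC class II, stood apart by its evenness, with 13.3 and 12.7 CPM in homozygous and 12.4 and 13.2 CPM in heterozygous pools.

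To see which members moved with the macrophage sum, each was divided by the summed CPM of the other macrophage-restricted genes in the same pool. Of the 23 such genes, 20 varied less over the 4 pools after this division than before. The median range over pools was 0.51 in log2 CPM and 0.33 in the log2 ratio. Csf1r kept an almost fixed ratio, at -2.16 and -2.19 in the homozygous pools, against -2.18 and -2.18 in the heterozygous pools (log2). For C1qa the log2 ratios were -3.22 and -3.18 in the homozygous pools, against -3.15 and -3.18 in the heterozygous pools. Cd14, which was not part of the sum, was as even, at -6.40 and -6.40 in the homozygous pools, against -6.45 and -6.46 in the heterozygous pools. The ratio of Il34 was lower in both homozygous pools, at -4.92 and -5.10, against -4.45 and -4.35 in the heterozygous pools. Ratios of C3ar1, Fcgr1 and Ptprc were also lower in both homozygous pools. That of Tyrobp was too, though barely, at -5.39 in homozygous replicate 2 and -5.38 in heterozygous replicate 2. Ratios of C1qb, C1qc and Cd14 were higher in both homozygous pools. How often this happens over all genes was not computed. Among the restricted genes, Cd163 had the widest range of ratios, at -8.17 and -6.73 in the homozygous pools, against -8.55 and -7.68 in the heterozygous pools. Aif1 and Ly86 were the other restricted genes that varied more as a ratio than in CPM. A gene and a sum from the same libraries share depth and scaling, so the ratios are a description.

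**Figure D4:**
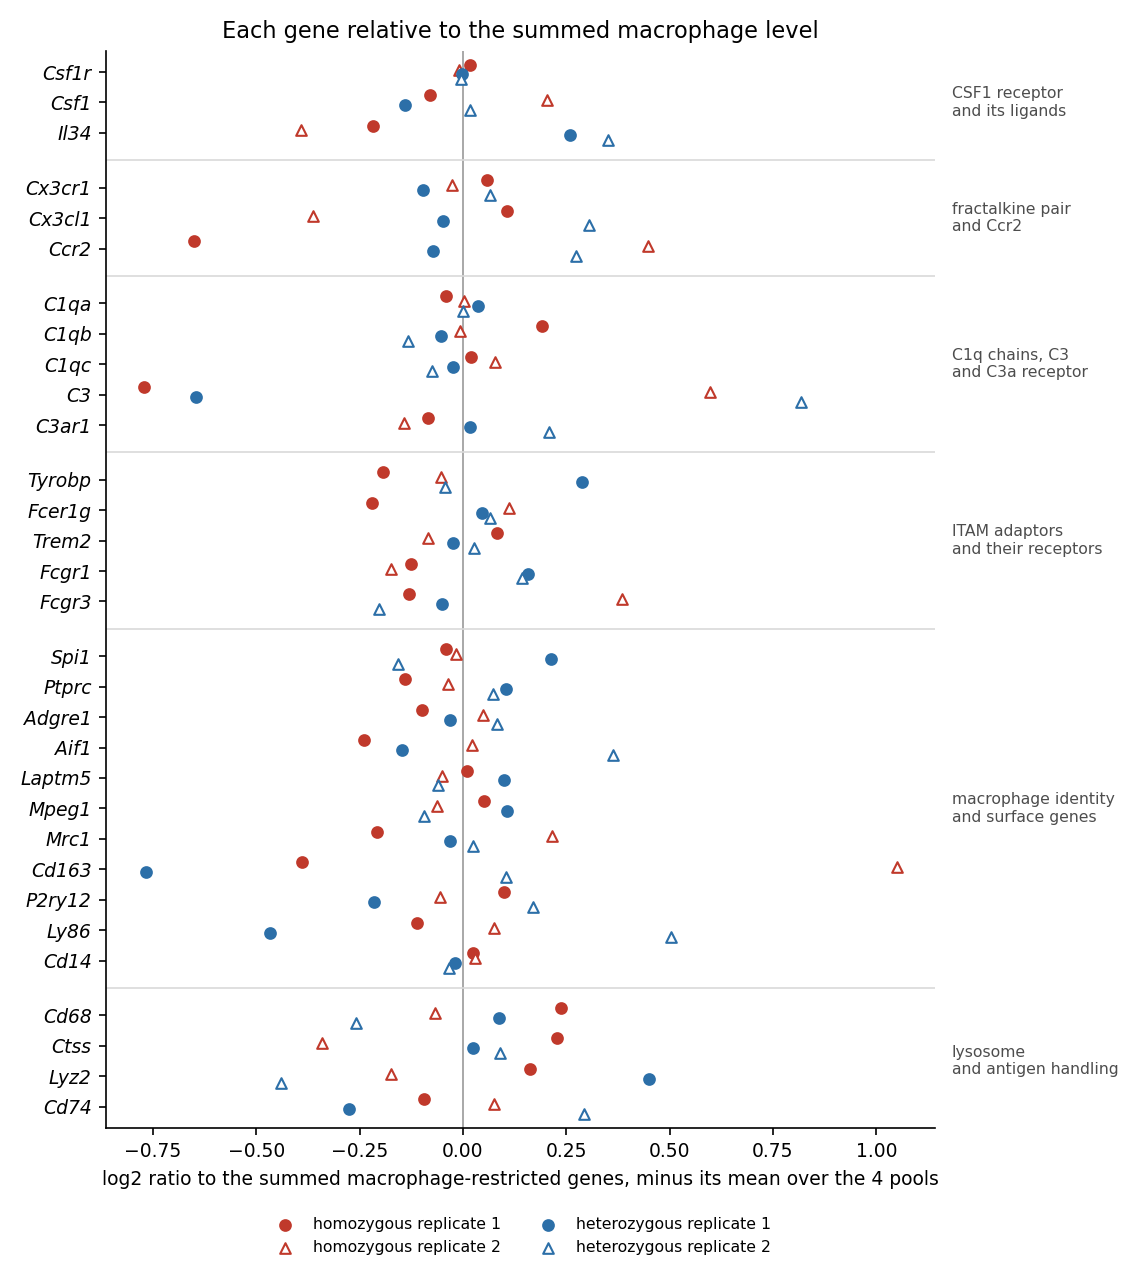
Log2 ratio of each member to the summed CPM of the other macrophage-restricted genes, minus its mean over the 4 pools, grouped by role. Symbols are as in the plot of CPM by pool. Csf1r, C1qa and Cd14 sit close to 0 in all pools; Il34 lies left of 0 in both homozygous and right of 0 in both heterozygous pools, and Cd163 and C3 spread widest.

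Related genes outside the 31 were read from 8 further lists. Over these lists of macrophage, complement, antigen presentation, chemokine, cytokine and phagocytosis genes, 162 different genes were tested. edgeR called 0 of them, and DESeq2 called 2 higher and 4 lower, 3.70%, against 4.14% of all genes it adjusted. In this set 33.3% of genes had pools that did not overlap by genotype, against 46.1% of all genes tested. Of 44 other macrophage and myeloid genes 0 passed either test, with a median log2 fold change of -0.09. Among the smallest edgeR p there were those of Coro1a (-0.50 ± 0.15, SE), of the leukocyte cytoskeleton, and Axl (0.19 ± 0.08), a receptor for dying cells. Also at 0 by both tests were the 12 border and perivascular macrophage genes (median 0.08), the 8 microglia genes (median -0.01) and the 8 MHC class II genes (median 0.08). In those lists the smallest edgeR p were those of Gas6 (-0.24 ± 0.08), a ligand of Axl, Olfml3 (0.50 ± 0.16) and H2-Eb1 (0.80 ± 0.32), a class II beta chain.

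Of 27 other complement genes, 1 rose and 1 fell by DESeq2. Colec12, a collectin scavenger receptor, had 155 and 182 CPM in the homozygous pools, against 130.2 and 106 CPM in the heterozygous pools (DESeq2 adjusted p = 0.0419). Csmd2, a membrane protein with complement control domains, had 5.98 and 4.36 CPM in the homozygous pools, against 11.6 and 9.84 CPM in the heterozygous pools (DESeq2 adjusted p = 0.0118). Masp2, a protease of the lectin pathway, had 0.0776 and 0.249 CPM in homozygous and 0.618 and 0.755 CPM in heterozygous pools without passing. C2, of the classical pathway and chosen after its values were seen, had 7.42 and 3.58 CPM in the homozygous pools, against 7.17 and 2.67 CPM in the heterozygous pools. Heterozygous replicate 2 was its lowest pool.

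The remaining calls were in the lists of phagocytosis, chemokine and cytokine genes. Cd200, a ligand that restrains macrophages through Cd200r1, rose by DESeq2, with 113 and 116 CPM in the homozygous pools, against 90.9 and 86.7 CPM in the heterozygous pools (DESeq2's log2 fold change 0.38 ± 0.11, SE, adjusted p = 0.0211). It was the call among 21 phagocytosis and signal regulators. Ackr1, an atypical chemokine receptor of venous endothelium and red cells, fell by DESeq2, with 4.37 and 5.52 CPM in the homozygous pools, against 12.2 and 9.50 CPM in the heterozygous pools (DESeq2's log2 fold change -1.13 ± 0.29, SE, adjusted p = 0.00405). It was the call among 22 chemokine genes. Il33, an alarm cytokine, had 7.53 and 8.63 CPM in the homozygous pools, against 12.4 and 21.7 CPM in the heterozygous pools, and fell by DESeq2 (adjusted p = 0.0268). Il10rb, a receptor chain for interleukin 10, fell as well, with 47.6 and 46.9 CPM in homozygous and 62.9 and 60.9 CPM in heterozygous pools (DESeq2 adjusted p = 0.0424). They were the calls among 24 cytokine and sensor genes. The cytokine genes Il1b, Tnf and Il6 did not pass the filter, with at most 15, 14 and 2 counts in any pool. Myd88 (0.52 ± 0.14), an adaptor of Toll-like receptors, Megf10 (0.30 ± 0.08), an engulfment receptor, and Elmo1 (-0.45 ± 0.11), which acts in engulfment, had small p without passing. Leaving out single pools ended each of the 6 calls: Cd200, Ackr1 and Il10rb lost theirs whichever pool was left out. Colec12 kept its call without homozygous replicate 1 (0.0213), Csmd2 without homozygous replicate 1 (0.0376) and Il33 without heterozygous replicate 1 (0.00813), by DESeq2's adjusted p.

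Other cell types were read from their markers in the same pools. Endothelial markers summed to 354 and 307 CPM in homozygous replicates 1 and 2, against 362 and 233 CPM in heterozygous replicates 1 and 2. Osteoclast markers, of a lineage close to macrophages, summed to 369.6 and 398 CPM in homozygous replicates 1 and 2, against 434 and 213 CPM in heterozygous replicates 1 and 2. In both lists heterozygous replicate 2 was the lowest pool, as for the macrophage sum. Erythroid markers, of red cells and their precursors, summed to 482 and 341 CPM in homozygous replicates 1 and 2, against 501 and 356 CPM in heterozygous replicates 1 and 2, higher in replicate 1 of each genotype. Of the 10 osteoclast genes tested, 8 had a log2 fold change below 0 and the median was -0.11. Itgb3, an integrin chain that other cells also express, rose by DESeq2 (log2 fold change 0.89 ± 0.13, SE), with 188 and 196 CPM of the homozygous sums, against 95.01 and 113 CPM of the heterozygous sums. Among the erythroid genes Hbb-bs rose (1.83 ± 0.52) and Hba-a2 fell (-0.49 ± 0.11) by DESeq2, and globin copies can share reads. The part of these cells in the macrophage differences was not tested. Markers of monocytes and neutrophils were low, with sums of 8.02 and 8.48 CPM in the homozygous pools, against 8.63 and 8.52 CPM in the heterozygous pools over 18 genes, of which 5 were tested and Ctsg had 0 counts. Lymphocyte markers summed to 11.4 and 11.4 CPM in the homozygous pools, against 8.60 and 7.89 CPM in the heterozygous pools, with 4 of 16 genes tested. Mast cell markers summed to 74.9 and 47.3 CPM in the homozygous pools, against 55.8 and 41.6 CPM in the heterozygous pools, nearly all of it Kit, which other cells express, while Fcer1a and Ms4a2 had 0 counts.

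Central glia markers, of which 3 of 10 fell by DESeq2, summed to 1559 and 540.4 CPM in homozygous replicates 1 and 2, against 1894 and 1802 CPM in heterozygous replicates 1 and 2. The low pool there was homozygous replicate 2, which lay between the heterozygous pools in the macrophage sum. The 8 microglia genes, for cells of the central nervous system, summed to 312 and 237 CPM in homozygous replicates 1 and 2, against 302 and 180.4 CPM in heterozygous replicates 1 and 2. Tmem119, which bone-forming cells also express and which was chosen after its values were seen, was part of that. It had 107 and 68.8 CPM in homozygous and 99.2 and 29.7 CPM in heterozygous pools. Olfml3 was another part, with 86.0 and 81.3 CPM in homozygous and 67.9 and 50.1 CPM in heterozygous pools. Fibroblast and bone markers summed to 13802 and 13260 CPM in the homozygous pools, against 11095 and 7951 CPM in the heterozygous pools, and cell cycle genes to 331 and 315 CPM in the homozygous pools, against 239.9 and 265 CPM in the heterozygous pools. Of the cell cycle genes, Aurkb, a mitotic kinase, rose by DESeq2, with 12.3 and 13.9 CPM in the homozygous pools, against 7.98 and 8.37 CPM in the heterozygous pools (adjusted p = 0.0353). Hair cell markers summed to 207 and 192 CPM in the homozygous pools, against 220.4 and 229 CPM in the heterozygous pools, and most of that was Myo6. Of the 9 hair cell genes 4 were tested, with 2 log2 fold changes above 0, 2 below and a median of 0.25. Espn, an actin bundler of hair bundles, rose by DESeq2, with 25.7 and 23.8 CPM in the homozygous pools, against 15.8 and 18.0 CPM in the heterozygous pools (adjusted p = 0.0377).

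**Figure D5:**
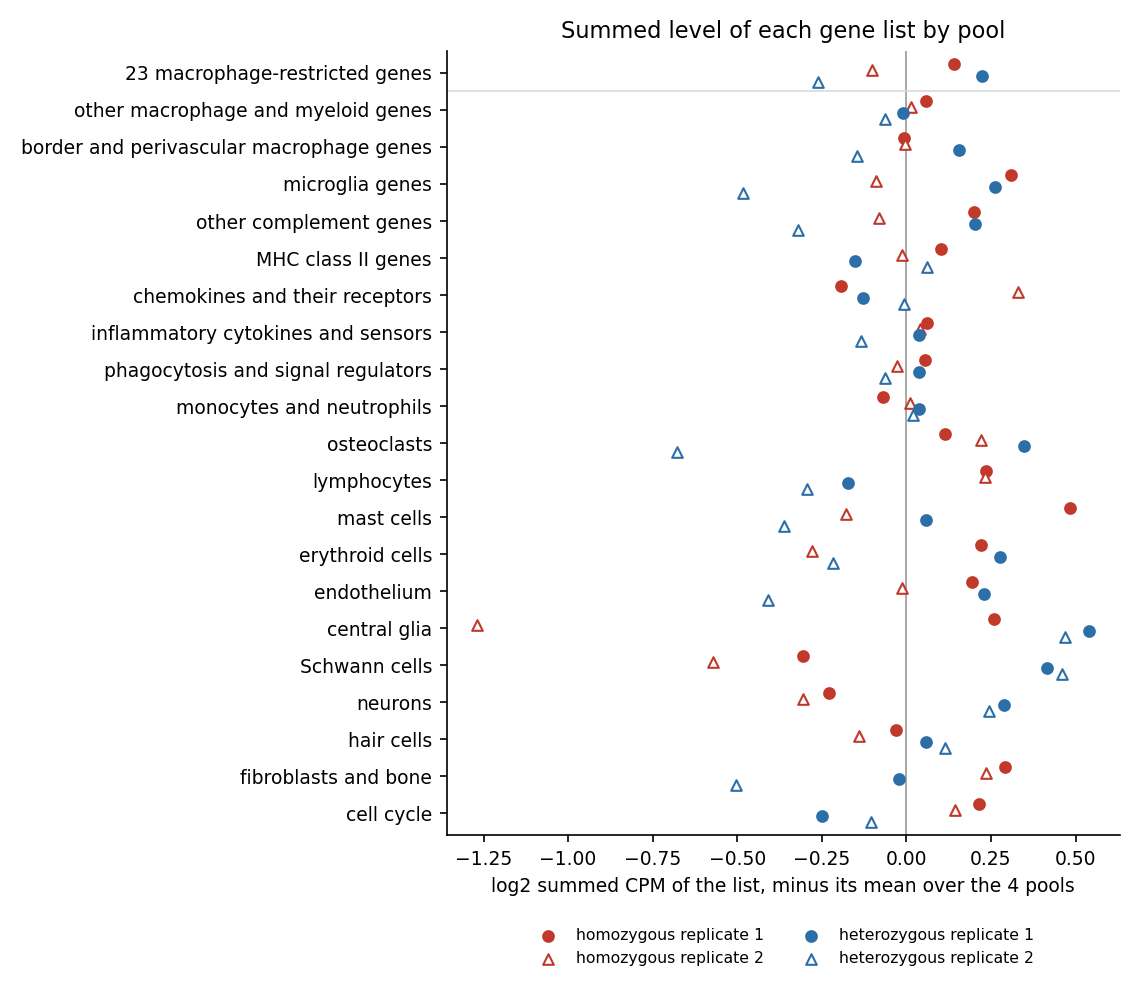
Log2 summed CPM of the 23 macrophage-restricted genes (top row) and of each related or other-cell list, minus its mean over the 4 pools. Red symbols are homozygous and blue symbols heterozygous pools, with filled circles for replicate 1 and open triangles for replicate 2. In the top row both homozygous pools lie between the heterozygous ones; neurons and Schwann cells lie left in both homozygous pools.

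The authors' deposited table of 343 changed genes held 0 of the 31 members. The table's largest adjusted p was 0.00982 and its smallest absolute log2 fold change 0.50. The label of the authors' deposited table says that outliers were removed, without saying which.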

How the data were processed

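Polyadenylated RNA from 2 homozygous and 2 heterozygous pools was sequenced. The estimated counts per gene were deposited; per the submitters' processing notes they came from Salmon against mm10, with versions and annotation not given in the sources used here. The authors' deposited table of changed genes also holds log2 fold changes, a mean signal of normalised counts, Wald scores, standard errors and p-values, per the file headers; it was read to look up the members and for the limits of its values.

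Estimated counts were rounded. The main test was edgeR 4.0.16 in R 4.3.3, with the quasi-likelihood test on genotype, TMM scaling and edgeR's filter on low counts, which kept 15359 genes. DESeq2 1.42.0 was the alternative. P-values were adjusted by Benjamini-Hochberg over all genes, with a threshold of 0.05. CPM used TMM library sizes, and pool differences were taken on log2(CPM + 0.1). The fits were tested on simulated data. Lengths are principal transcripts of GENCODE M21.

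All 31 members were described. From other lists the text names genes past either tool's adjusted threshold and some of the up to 3 with the smallest edgeR p; glia, neuron and connective tissue calls are given as counts or sums. Some genes of these lists are not reported here. The members and lists were chosen with earlier results of these data known. Il34, Csf1, Cx3cl1, Ccr2, C3, Cd14, Lyz2 and Cd74 were left out of the sum of 23. Other scalings, other filters, a replicate block and leaving out each pool were tried. Gene counts do not state strand, so overlapping genes are uncertain.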

Additional observations from a re-analysis of the deposited data

How the results depend on the processing

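No member was called under any setting run: RLE or upper quartile scaling, no filter, at least 1 CPM in at least 2 pools (29 members tested), a replicate block, DESeq2, DESeq2 with the block, or leaving out each pool. Over all genes, calls higher in homozygous pools were 132 with the replicate block, 158 with DESeq2 and 164 with DESeq2 and the block, against 0 for edgeR without it; calls lower were 363, 506 and 444. Leaving out 1 pool gave edgeR 0 to 2 higher and 0 to 58 lower calls. DESeq2 gave 50 to 135 higher calls (135 without homozygous replicate 1, 72 without homozygous replicate 2, 95 without heterozygous replicate 1, 50 without heterozygous replicate 2) and, in the same order, 552, 235, 129 and 119 lower calls. In these fits the lone pool takes its spread from the other genotype. The labels do not say that replicate numbers pair the pools. Deviations of same-numbered pools correlated at r = 0.323 across 15359 genes, which are not independent replicates. With the replicate block Il34 had an adjusted p of 0.0651 (edgeR) and 0.223 (DESeq2). Of the 6 related genes called by DESeq2, Cd200 (0.126) and Il10rb (0.230) were not called by DESeq2 with the block, while edgeR with it called Csmd2 (0.0399). The members' median log2 fold change was between -0.02 and 0.01 under the other settings and between -0.18 and 0.25 when 1 pool was left out (0.24 by edgeR without heterozygous replicate 1). Then the sign changed for 10 to 12 of the 31 members, against 0 to 5 under the others; the cause was not tested. The log2 ratio of the sum was 0.02 to 0.08 under other scalings or summaries and -0.20 to 0.29 without 1 pool. Depth limits Ccr2 and C3 most, with at most 33 counts in a pool.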
